A study of Mus musculus with 6 samples.

Results

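The regions described here are the ATAC-seq peaks of mouse liver whose nearest annotated gene start belongs to a microRNA gene. A peak was taken when the gene name in the authors' table begins with Mir and a digit, or with Mirlet. This gave 2268 peaks out of 74076, or 3.06%, assigned to 613 microRNA symbols. ATAC-seq uses a transposase that cuts open DNA and tags it for sequencing, so the level of a peak measures how accessible that stretch of chromatin is. The study compared 3 refed and 3 fasted livers from wild-type male C57BL/6J mice aged 8 weeks. Refed mice were fasted for 12 h starting at 10 am and then ate a high sucrose diet (69% sucrose, 10% fat) for 12 h, whereas fasted mice had no food for 12 h starting at 10 pm. All mice were killed at 10 am, and feeding, the diet and the hours of the fast cannot be told apart. Whether a library stands for 1 animal is not stated in the labels, so the p-values measure only the spread between these libraries.

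MicroRNAs are short RNAs cut from a hairpin in a longer transcript, and they lower the output of messenger RNAs that pair with them. Pairing rests mainly on the seed, bases 2 to 8 of the mature strand, so microRNAs with the same seed form a family. Many hairpins lie inside introns of protein-coding genes and are made from the host's transcript, and others have a promoter of their own that can lie far upstream. The annotated start of a microRNA gene is the edge of the hairpin rather than a promoter. A peak that is nearest to a microRNA start can therefore be a regulatory element of the host or of another gene. In liver, Mir122 is the most abundant microRNA of hepatocytes, Mir33 lies within the cholesterol regulator Srebf2, and Mir802, Mir103-1, Mir107 and the let-7 family have been linked to insulin action in mice.

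The mature sequences below, from RefSeq on GRCm38.p6, are those of the microRNAs on which the results turn, with the seed in capitals. The first 6 belong to microRNAs with an assigned peak that was more accessible in refed liver, and Mir1983 had the largest change.
mmu-miR-6392-5p: uCUGGCGCccugguccugucagc
mmu-miR-7009-5p: uUGGGGUCaggggaccagagcu
mmu-miR-5098: gUUACAUGgugaagcccaguu
mmu-miR-1983: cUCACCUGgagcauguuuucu
mmu-miR-1191b-5p: uCAGGCUAcagagcgagaaccu
mmu-miR-6978-5p: aAGGGGUGagagagaagcuggug
The seed GAGGUAG of the let-7 family was carried by 7 symbols among those with a peak, more than any other seed, and it includes Mir1961, which had a called peak.
mmu-miR-1961: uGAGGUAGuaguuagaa
mmu-let-7a-5p: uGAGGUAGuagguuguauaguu
mmu-let-7b-5p: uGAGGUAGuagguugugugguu
mmu-let-7d-5p: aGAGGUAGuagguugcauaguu
mmu-let-7i-5p: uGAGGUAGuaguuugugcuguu
The last 4 show Mir802 and the Mir101 genes, whose peaks are described among the liver microRNAs.
mmu-miR-802-5p: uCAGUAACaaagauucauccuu
mmu-miR-101a-3p: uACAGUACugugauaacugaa
mmu-miR-101b-3p: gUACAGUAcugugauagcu
mmu-miR-101c: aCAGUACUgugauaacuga
The 3 Mir101 sequences share a run of 14 bases that begins at base 2 in Mir101a, base 3 in Mir101b and base 1 in Mir101c, so their seeds as listed differ. Of the 613 symbols, 548 had a mature sequence in the table, and 71 seeds were each shared by more than 1 symbol.

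Peak levels are given in RPKM, deposited by the authors, which are reads in a peak for each kilobase of its length, scaled by all reads of that library that fall in peaks. Libraries held between 3238712 and 4679316 reads in peaks in refed liver, against 3205634 to 4850613 in fasted liver. The median microRNA-assigned peak held 17 to 27 reads in a library, against 19 to 33 over all peaks, so the values of an average peak rest on few reads. All 8 hepatocyte markers, such as Alb and Hnf4a, had a promoter peak, with summed levels of 274 to 300 RPKM in refed and 269 to 296 RPKM in fasted livers. None of the 8 Kupffer cell and macrophage markers had one, and 2 of the 15 lymphocyte markers did, with sums of 22.2 to 29.6 RPKM in refed and 26.2 to 34.7 RPKM in fasted livers. Sinusoidal endothelial markers had promoter peaks at 5 of 8 genes, with sums of 80 to 91.5 RPKM in refed and 63.4 to 77.8 RPKM in fasted livers, groups that did not overlap. Stellate markers (4 of 7 genes, 77.5 to 93.4 RPKM in refed and 80.2 to 93.5 RPKM in fasted livers) and bile duct markers (3 of 6 genes, 65.8 to 81.3 RPKM in refed and 52.4 to 91 RPKM in fasted livers) overlapped between groups. The part of these cell types in the results below was not tested. In bulk tissue, fewer cells of a type and less accessible chromatin per cell cannot be told apart.

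Peaks assigned to microRNAs mostly lay far from the hairpin. Within 1 kb of the annotated start were 6.22% of the 2268, against 19.7% of all peaks, and 612, or 27%, were beyond 100 kb, against 19.2%. A further 477 peaks lay at 1 to 10 kb and 1038 at 10 to 100 kb. The median distance was 29649.5 bp, against 20089.5 bp over all peaks, and the farthest peak was 1595643 bp away. Of the 613 symbols, 21.7% had a peak within 1 kb and 64.1% had one within 10 kb.

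**Figure D1:**
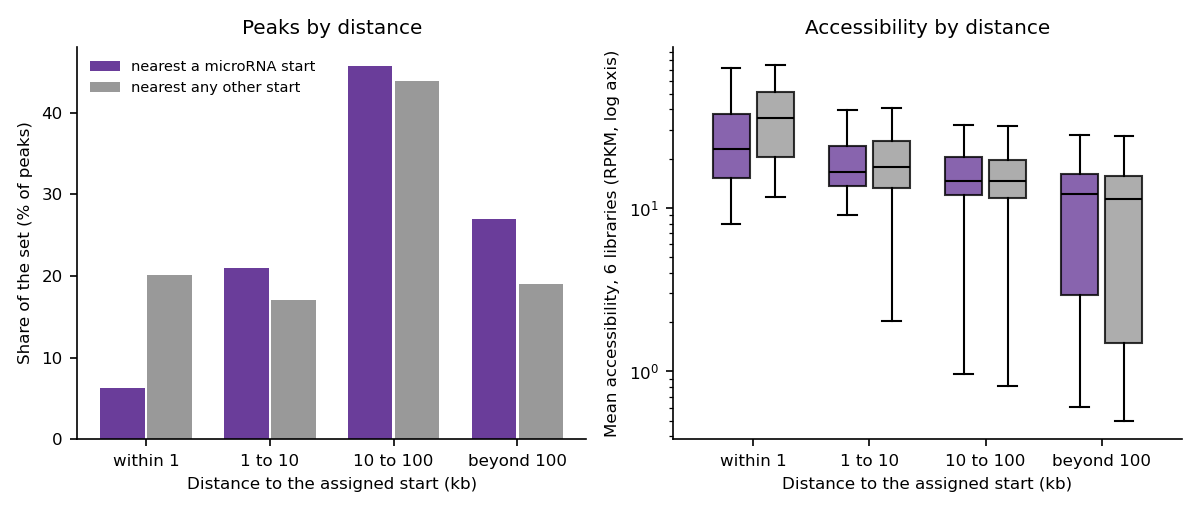
Left, the share of peaks (%) in each class of distance to the assigned start, for 2268 peaks nearest a microRNA start (purple) and for peaks nearest any other start (grey). Right, mean accessibility over the 6 libraries (RPKM, log axis) in the same classes, with boxes from the first to the third quartile, a line at the median and whiskers at the 5th and 95th percentiles. Within 1 kb the microRNA-assigned peaks were fewer, 6.22% against 20.1%, and their median level was lower, 22.8 against 35.3 RPKM.

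Accessibility was lower at greater distances. The median peak level was 22.8 RPKM within 1 kb of a microRNA start, 16.6 RPKM at 1 to 10 kb, 14.7 RPKM at 10 to 100 kb and 12.2 RPKM beyond 100 kb. Over all peaks the same medians were 35.2, 17.6, 14.6 and 11.4 RPKM, so the gap lay within 1 kb. In the file's annotation, 3.75% of microRNA-assigned peaks were in the promoter class, against 12.4% of all peaks. Introns held 43.0% of them, against 35.7%, and 46.1% were intergenic, against 43.2%. In 1066 peaks, or 47.0%, the annotated feature belonged to a transcript other than the microRNA named. Peaks within satellite repeats made up 1.32%, against 0.161% of all peaks, and 27 of the 30 were assigned to Mir101c.

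The refed and fasted groups had nearly the same typical level. The median log2 change, refed minus fasted, was 0.021 over the microRNA-assigned peaks, against 0.002 over all peaks. By distance it was -0.004 within 1 kb, -0.005 at 1 to 10 kb, 0.011 at 10 to 100 kb and 0.118 beyond 100 kb, against -0.023, 0.001, 0.002 and 0.076 over all peaks in the same classes. Beyond 100 kb the library medians were 12.6, 10.9 and 12.8 RPKM in refed replicates 5, 7 and 8, against 11, 9.14 and 10.2 RPKM in fasted replicates 1, 3 and 4. Refed replicate 7 thus lay just below fasted replicate 1, and the groups overlapped.

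Few microRNA-assigned peaks were called in the main fit. In refed liver, 20 peaks of 17 symbols were more accessible and 6 peaks of 5 symbols were less accessible (limma, adjusted p under 0.05 over all peaks). The 26 called peaks are 1.15% of the microRNA-assigned peaks, against 1.23% of all peaks. The higher calls were 0.882%, against 0.802%, and the lower calls 0.265%, against 0.427%, shares close to the background. Of the 20 higher peaks 17 changed at least 2-fold, with a median log2 change of 1.43, and of the 6 lower peaks 5 did, with a median of -1.43. Introns held 13 of the 20 higher peaks and none of the 6 lower ones, of which 4 were intergenic. Of all microRNA-assigned peaks 43.0% lay in introns and 46.1% were intergenic, and 6 lower peaks are too few to compare. All 3 refed values lay above all 3 fasted values at 278 peaks, or 12.3%, against 10.5% of all peaks, and below them at 197, or 8.69%, against 8.57%. The groups stood apart in this way at all 20 higher and all 6 lower called peaks. That separation, given below for single called peaks, adds no support, because the peaks were chosen by a test on the same libraries. The counts moved with the libraries, over all peaks as well. Higher calls numbered 31 without fasted replicate 1 (1.37%, against 1.31% of all peaks) and 8 without fasted replicate 4 (0.353%, against 0.244%). Without refed replicates 5, 7 and 8 they numbered 9, 7 and 2 (0.397%, 0.309% and 0.0882%, against 0.315%, 0.235% and 0.104%). Lower calls numbered 3 without fasted replicate 3 (0.132%, against 0.285%) and 0 without fasted replicate 4 (against 0.0648% of all peaks). Without refed replicates 7 and 8 they numbered 3 and 2 (0.132% and 0.0882%, against 0.2% and 0.0985%). On recovered reads, edgeR called 57 higher and 24 lower peaks at an adjusted p under 0.05, 4.37% of those it tested, against 4.01% of all peaks (3.08% higher, against 2.58%, and 1.3% lower, against 1.43%). DESeq2 called 17 higher and 9 lower, 1.59% against 1.66% of all peaks it tested (1.04% higher, against 1.04%, and 0.549% lower, against 0.616%). With median centring of each library limma called 27 higher peaks (1.19%, against 1.2% of all peaks) and 18 lower ones (0.794%, against 0.819%). After quantile normalization it called 1 of each, 0.0441% in either direction, against 0.0958% of all peaks higher and 0.031% lower. Without an intensity trend, limma called 0 peaks of this set and 0 of all peaks. In that fit 391 of the 2268 peaks of the set had an unadjusted p under 0.05, against 10454 of all 74076.

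**Figure D2:**
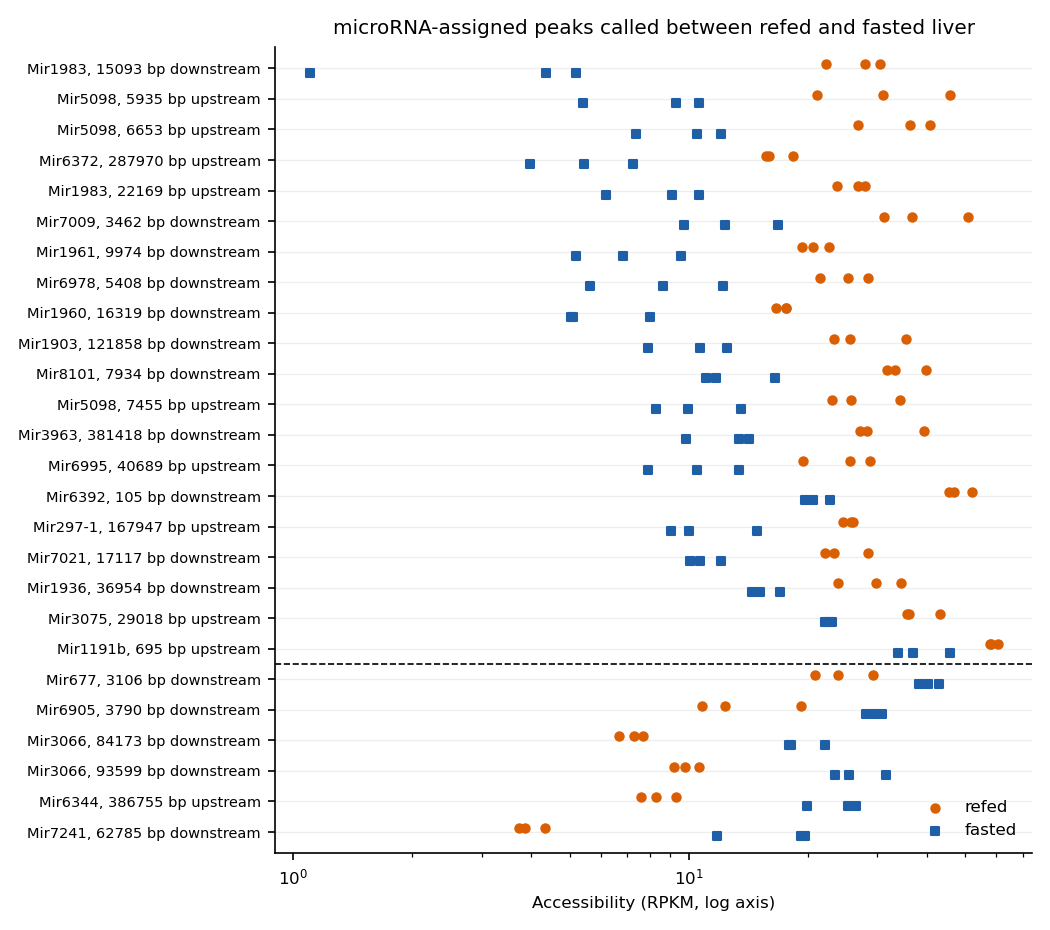
Accessibility (RPKM, log axis) of the 26 called peaks in each refed (orange circles) and fasted (blue squares) library, ordered by the log2 change, with the distance to the microRNA start beside the name. Above the dashed line are the 20 peaks higher in refed liver, and below it the 6 that were lower; Mir1983 at the top has the largest log2 change, with a mean of 26.9 RPKM in refed against 3.55 RPKM in fasted liver.

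By distance, the calls were 2 higher and 0 lower within 1 kb, or 1.42% of these peaks, against 0.487% of all peaks in that class. At 1 to 10 kb they were 7 higher and 2 lower (1.89%, against 2.25%), at 10 to 100 kb 7 higher and 3 lower (0.963%, against 1.33%), and beyond 100 kb 4 higher and 1 lower (0.817%, against 0.85%). The calls within 1 kb rest on 2 peaks, at Mir6392 and Mir1191b. Of the 26 called peaks 15 lay in or at another transcript and 9 were intergenic, against 47.0% and 46.1% of all microRNA-assigned peaks.

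**Figure D3:**
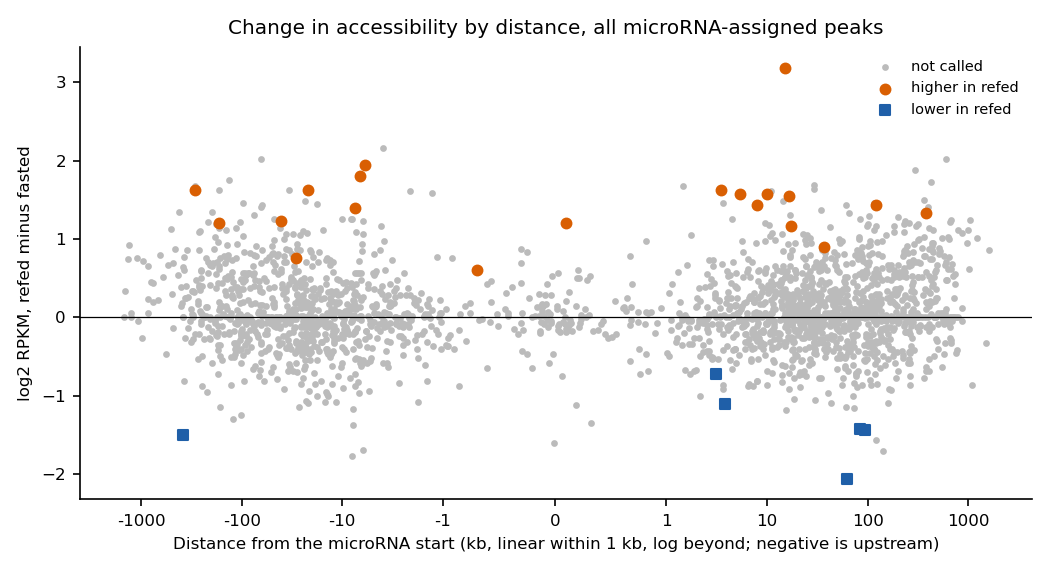
The log2 change in accessibility (refed minus fasted) of the 2268 microRNA-assigned peaks against the signed distance from the microRNA start (kb, linear within 1 kb and logarithmic beyond, negative is upstream). Orange circles are the 20 peaks called higher and blue squares the 6 called lower; 2 of them lie within 1 kb.

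Among the called peaks, the one over the Mir6392 hairpin had the smallest adjusted p. The RefSeq annotation of GRCm38.p6 places Mir6392 inside Pnpla3, which encodes a lipid droplet protein of hepatocytes. The nearest other protein-coding genes are Samm50 and Pnpla5. The peak is 1681 bp wide, on mm9 chromosome 15 from 83997965 to 83999645, and its centre lies 105 bp downstream of the hairpin start. It had 47, 52.2 and 45.6 RPKM in refed replicates 5, 7 and 8, against 20.7, 19.7 and 22.8 RPKM in fasted replicates 1, 3 and 4. The lowest refed value was thus well above the highest fasted one. These values rest on 973 reads over the 3 refed libraries and 432 reads over the 3 fasted libraries. The mean was 48.3 ± 3.44 RPKM in refed and 21.1 ± 1.62 RPKM in fasted liver (SD, n = 3 each). On the log2 scale this is 1.20 ± 0.14 (SE; adjusted p = 0.00213 by limma). With any 1 library left out the largest adjusted p was 0.0167.

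Within 1 kb the other called peak was at Mir1191b, 695 bp upstream of the hairpin and labelled as its promoter, on chromosome 10 from 80879370 to 80880104. RefSeq places this hairpin inside Nfic, which encodes a transcription factor of the nuclear factor I family. It had 58.3, 60.5 and 57.9 RPKM in the 3 refed libraries, against 33.9, 45.8 and 36.9 RPKM in the 3 fasted libraries. The groups did not overlap, and the refed values were closely spaced. The log2 change was 0.61 ± 0.12 (SE; limma adjusted p = 0.0279). A second Mir1191b peak, 3836 bp upstream in an Nfic intron, was picked out after its values were seen and not called by limma. It had 50.4, 84.5 and 51 RPKM in refed and 31.8, 41.6 and 21.5 RPKM in fasted libraries (log2 change 0.98, limma adjusted p = 0.0563, edgeR adjusted p = 0.01). The call at the nearer peak was lost without fasted replicate 4 and without any of the 3 refed replicates (largest adjusted p 0.107).

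The 3 called peaks of Mir5098 were more accessible in refed liver, and all lie in intron 2 of Ppard on mm9 chromosome 17. Ppard encodes the nuclear receptor PPAR delta, which binds fatty acids and regulates their oxidation. The peak at 5935 bp upstream of the file's Mir5098 start had 21.1, 45.9 and 31.1 RPKM in the 3 refed libraries, against 9.27, 5.4 and 10.6 RPKM in the 3 fasted libraries. The peak at 6653 bp had 26.8, 40.7 and 36.4 RPKM in refed and 7.38, 12.1 and 10.5 RPKM in fasted libraries. The peak at 7455 bp had 23.1, 34.3 and 25.8 RPKM in refed and 9.96, 13.6 and 8.27 RPKM in fasted libraries. In each the groups stood apart, and refed replicate 7 was the highest library. The log2 changes were 1.94 ± 0.33, 1.80 ± 0.25 and 1.40 ± 0.26 (SE), with limma adjusted p of 0.0174, 0.00658 and 0.0247.

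Farther along Ppard, in intron 3, lay peaks at 14298 and 17001 bp from the same start. Their log2 changes were 0.76 (limma adjusted p = 0.153) and 0.83 (0.0841). They were called by edgeR (adjusted p of 0.0462 and 0.0137) and not by limma. Their changes were smaller than those in intron 2, although that difference between peaks was not tested. The file also places Mir5098 on chromosomes 8 and 11, where its peaks had log2 changes of -0.07 and -0.08 (both limma adjusted p = 0.999). RefSeq lists Mir5098 on chromosome 5, inside Rest, so the name describes the file's annotation and the change describes the Ppard introns. The 5935 bp peak lost its call without refed replicate 7 or 8, and the 6653 bp peak without refed replicate 8. The 7455 bp peak lost it without fasted replicate 4, refed replicate 7 or refed replicate 8. The largest limma adjusted p of these peaks in these fits was 0.11. Higher calls over all peaks also fell, from 0.802% to 0.244% without fasted replicate 4. They were 0.235% and 0.104% without refed replicates 7 and 8.

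Mir1983, on chromosome 13, had 5 assigned peaks, and the 3 refed values lay above the 3 fasted values at each. Such a separation was found at 12.3% of microRNA-assigned peaks and 10.5% of all peaks. The nearest protein-coding genes to Mir1983 in RefSeq are Zfp184 and the histone gene H4bc24. Of the 5 peaks, 1 overlaps an annotated tRNA repeat. The peak at 15093 bp downstream, from 21973542 to 21974108, had 27.9, 22.3 and 30.5 RPKM in refed and 4.36, 1.1 and 5.18 RPKM in fasted libraries. The fasted values rest on 12, 2 and 12 reads, against 66, 41 and 81 reads in refed libraries, so their ratio is imprecise. The log2 change was 3.19 ± 0.53 (SE; limma adjusted p = 0.0148), the largest of the set. The tRNA peak at 22169 bp upstream had 26.9, 23.7 and 28 RPKM in refed and 10.6, 6.19 and 9.06 RPKM in fasted libraries (1.63 ± 0.28, SE; limma adjusted p = 0.0165).

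The other 3 Mir1983 peaks were not called by limma. Their log2 changes were 1.07 at 14029 bp downstream (limma adjusted p = 0.121), 1.45 at 17771 bp upstream (0.0829) and 1.49 at 23237 bp upstream (0.146). Of these edgeR called the first and the second (0.0311 and 0.0193) and did not test the last. The 5 peaks, on both sides of the gene, thus had differences of the same sign, at a locus described because 2 of them were called. Without refed replicate 8 the 15093 bp peak lost its call (limma adjusted p = 0.0752), and the 22169 bp peak lost it without refed replicate 5 or 8 (at most 0.0944).

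**Figure D4:**
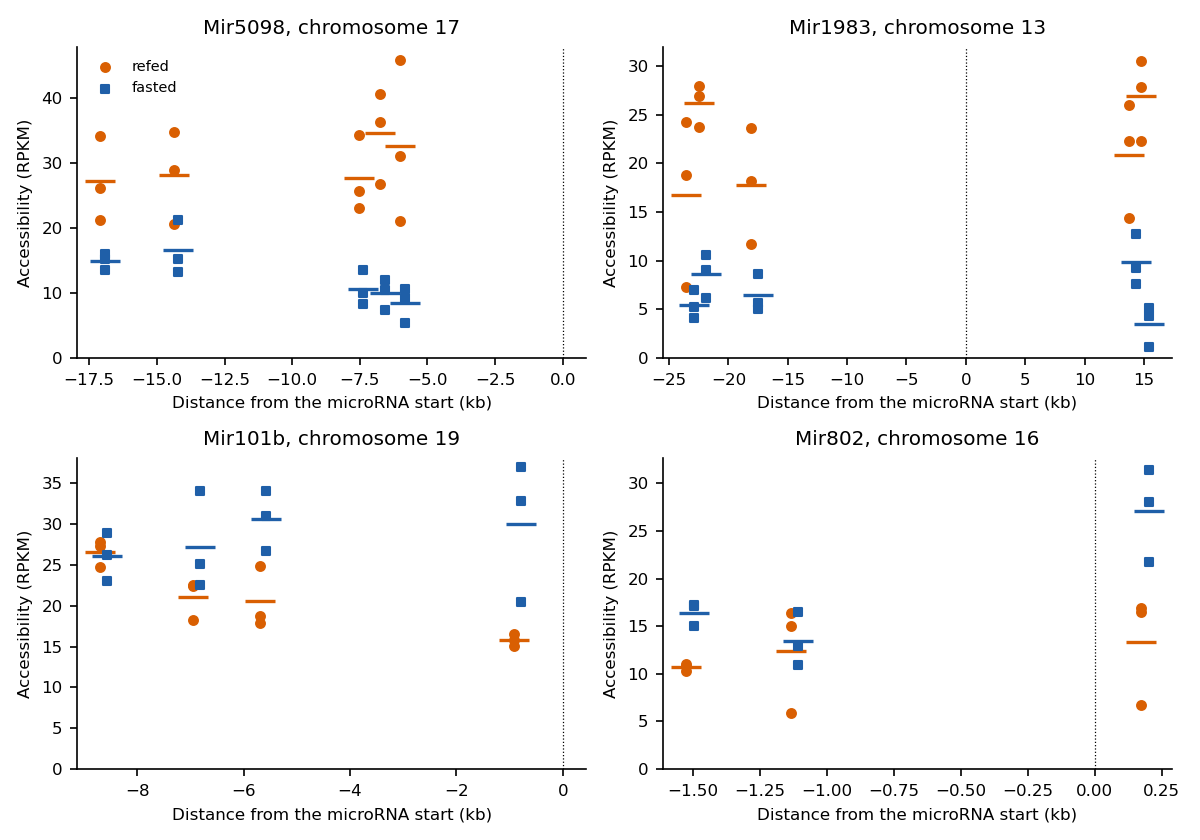
Accessibility (RPKM) in each refed (orange circles) and fasted (blue squares) library of every peak assigned to Mir5098 on chromosome 17, Mir1983, Mir101b and Mir802, against distance from the microRNA start (kb, dotted line at 0); horizontal bars are group means. Refed points lie above fasted points at the 5 Mir1983 peaks and the 3 Mir5098 peaks nearest the start, and below them at the peaks nearest Mir802 and Mir101b.

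Peaks in other host genes were also more accessible in refed liver. In intron 2 of Anxa5, a gene of a phospholipid-binding protein, the peak 3462 bp downstream of Mir7009 had 50.8, 31.2 and 36.7 RPKM in refed and 9.72, 16.8 and 12.4 RPKM in fasted libraries. The groups stood well apart, and the log2 change was 1.62 ± 0.24 (SE; limma adjusted p = 0.00872). This call and that of Mir6392 were the only ones of the 26 that held with any 1 library left out (largest adjusted p 0.0468 for Mir7009). In intron 2 of Hdac5, a histone deacetylase gene, the peak 7934 bp downstream of Mir8101 had 31.7, 39.8 and 33.2 RPKM in refed and 11.7, 16.5 and 11.1 RPKM in fasted libraries. Here too every refed library exceeded every fasted one, and the log2 change was 1.43 ± 0.21 (SE; limma adjusted p = 0.00856), a call lost without refed replicate 8 (0.0516).

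In intron 28 of C3, the gene of the central complement component that hepatocytes secrete, the peak 5408 bp downstream of Mir6978 had 21.5, 25.3 and 28.4 RPKM in refed and 5.64, 12.2 and 8.6 RPKM in fasted libraries. The groups did not overlap, and the log2 change was 1.57 ± 0.31 (SE; limma adjusted p = 0.0295). In intron 1 of Shroom3, a gene of an actin-binding protein, the peak 9974 bp downstream of Mir1961 had 19.4, 20.7 and 22.7 RPKM in refed and 5.18, 9.59 and 6.83 RPKM in fasted libraries (log2 change 1.58 ± 0.32, SE; limma adjusted p = 0.0326). The gain at Mir1961, which has the let-7 seed, was the 1 call among the 20 peaks of the 7 symbols with that seed, against 1.23% of all peaks, and 1 call is too few to compare. Both calls were lost without fasted replicate 4 and without any of the refed replicates, with adjusted p of up to 0.156 and 0.16.

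Introns of 5 more genes held a called gain. Intron 2 of Zmiz1, a gene of a transcriptional coregulator, held the peak 29018 bp upstream of Mir3075, with 36.1, 43.3 and 35.6 RPKM in refed and 22.1, 23 and 22.7 RPKM in fasted libraries (log2 change 0.76, limma adjusted p = 0.0261). At 6897 and 1142 bp upstream, in Zmiz1 introns as well, Mir3075 peaks had log2 changes of 0.72 and 0.77 with limma adjusted p of 0.0735 and 0.102, and edgeR called both (0.0405 and 0.0462); this pair was picked out after its values were seen. Intron 11 of Nrp1, the gene of a coreceptor for growth factors and semaphorins, held the Mir1903 peak, with a mean of 28.1 ± 6.49 RPKM in refed and 10.4 ± 2.31 RPKM in fasted liver (SD, n = 3 each; log2 change 1.44, limma adjusted p = 0.0219). Intron 8 of Prdm2, which encodes a zinc finger protein with a methyltransferase domain, held the Mir7021 peak at 24.7 ± 3.36 RPKM in refed and 11 ± 1.06 RPKM in fasted liver (1.16, limma adjusted p = 0.032). The Mir1936 peak in intron 2 of Itpk1, an inositol phosphate kinase gene, had 29.4 ± 5.33 RPKM in refed and 15.6 ± 1.31 RPKM in fasted liver (0.90, limma adjusted p = 0.0471). The Mir6995 peak in intron 7 of Sh3pxd2a, a scaffold protein gene, lies in a CpG island and had 24.6 ± 4.74 RPKM in refed and 10.6 ± 2.77 RPKM in fasted liver (1.23, limma adjusted p = 0.0489).

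The remaining gains lay at Mir1960, Mir6372, Mir297-1 and Mir3963. Mir1960 sits inside Hadhb, which encodes a subunit of the mitochondrial enzyme of fatty acid oxidation, and its intergenic peak 16319 bp downstream overlaps a SINE. It had 17.3 ± 0.603 RPKM in refed and 6.04 ± 1.68 RPKM in fasted liver (SD, n = 3 each; log2 change 1.55, limma adjusted p = 0.0483) and rests on 4 to 19 reads a library. The Mir6372 and Mir297-1 peaks overlap LTR repeats 287970 and 167947 bp upstream of the start, that of Mir6372 in an intron of 5730522E02Rik, with log2 changes of 1.63 (limma adjusted p = 0.0491) and 1.20 (0.0367). RefSeq lists Mir297-1 on chromosome 7, whereas the file has it on chromosome 15. The Mir3963 peak, 381418 bp downstream, had 31.6 ± 6.71 RPKM in refed and 12.5 ± 2.31 RPKM in fasted liver (1.33, limma adjusted p = 0.0175).

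Accessibility was lower in refed liver at 6 peaks. The largest loss was 62785 bp downstream of Mir7241, a hairpin that RefSeq places in C2cd4b. The peak, on chromosome 9 from 67512637 to 67512968, had 4.33, 3.72 and 3.86 RPKM in refed and 19.2, 19.7 and 11.8 RPKM in fasted libraries. These values rest on 6, 4 and 6 reads in refed and 31, 21 and 16 reads in fasted libraries. The groups did not overlap, and the log2 change was -2.06 ± 0.39 (SE; limma adjusted p = 0.0253). The intergenic peak 386755 bp upstream of Mir6344 had 8.29, 7.59 and 9.31 RPKM in refed and 25.3, 19.9 and 26.5 RPKM in fasted libraries (-1.50 ± 0.27, SE; limma adjusted p = 0.0196). The Mir6344 hairpin neighbours Irs1, the gene of an adaptor of the insulin receptor, but genes beside the distant peak itself were not examined.

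Mir3066, inside the nucleolar protein gene Nol10, had 2 lower peaks, both intergenic and beyond Nol10. The peak at 84173 bp had 6.67, 7.65 and 7.28 RPKM in refed and 17.9, 22.2 and 18.2 RPKM in fasted libraries, and that at 93599 bp had 9.78, 10.6 and 9.19 RPKM in refed and 23.5, 25.5 and 31.6 RPKM in fasted libraries. Their log2 changes were -1.43 ± 0.30 and -1.44 ± 0.24 (SE; limma adjusted p of 0.0376 and 0.0149). The peaks at 85090 and 86216 bp, which lie between them, had log2 changes of 0.13 and 0.02, and the peak at 94509 bp one of -0.01, with limma adjusted p of 0.929, 0.999 and 0.999. The loss was therefore measured at separate peaks with neighbours whose groups overlapped.

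The last pair of lower peaks was at protein-coding gene bodies. At the 3′ end of Med23, a Mediator subunit gene that RefSeq places beside the urea cycle gene Arg1, the Mir6905 peak had 10.8, 12.4 and 19.2 RPKM in refed and 30.9, 29.6 and 28.1 RPKM in fasted libraries (log2 change -1.11 ± 0.23, SE; limma adjusted p = 0.0383). In exon 8 of Atp5b, which encodes the catalytic subunit of ATP synthase, the Mir677 peak had 29.3, 23.9 and 20.9 RPKM in refed and 40.4, 38.2 and 42.9 RPKM in fasted libraries (-0.72 ± 0.15, SE; limma adjusted p = 0.0398). Fasted values were closely spaced and above the refed ones at both. By edgeR neither passed, with adjusted p of 0.0627 and 0.0989.

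Leaving out 1 library ended most of these calls. Those at Mir1936, Mir1960 and the 84173 bp peak of Mir3066 were lost whichever of the 6 libraries was left out (limma adjusted p of up to 0.168, 0.171 and 0.134). Those at Mir6995, Mir6372, Mir297-1, Mir7241, Mir6905 and Mir677 were lost in 5 of 6, and those at Mir3075 and Mir7021 in 4 of 6, without fasted replicate 4 or any refed replicate. The Mir1903 call was lost without fasted replicate 4, refed replicate 7 or refed replicate 8. The Mir6344 call and the 93599 bp call of Mir3066 were lost without fasted replicate 4 or refed replicate 8, and the Mir3963 call without refed replicate 5 or 8. The exceptions among those lost in 5 of 6 were fasted replicate 3 for Mir6995, fasted replicate 1 for Mir6372 and Mir297-1, refed replicate 5 for Mir7241 and Mir677, and refed replicate 8 for Mir6905. On recovered reads DESeq2 did not call 10 of the 26. Its adjusted p was between 0.06 and 0.07 at Mir297-1 (0.0619), Mir7021 (0.0623), Mir3075 (0.0631) and Mir6978 (0.0637). It was 0.0817 at the 84173 bp peak of Mir3066, 0.105 at Mir1936, 0.11 at Mir6372 and 0.146 at the 7455 bp peak of Mir5098. The lower peaks of Mir6905 and Mir677 were farthest from passing, at 0.331 and 0.407, and DESeq2 gave Mir1960 no adjusted p.

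At microRNAs known for roles in liver and metabolism limma called no peak. The list held 47 symbols with 218 peaks, of which limma called 0, against 1.23% of all peaks. An unadjusted p under 0.05 was reached by 36, or 16.5%, against 14.5% of all peaks, a share near the background. On recovered reads edgeR called 2 higher and 4 lower of the 218, some of which it did not test, against 4.01% of all peaks it tested. The median log2 change was 0.01, against 0.002 over all peaks. For 37 symbols the nearest peak lay within 10 kb, and there the log2 change ranged from -1.12 to 0.61 with a median of 0.01.

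The peak over the Mir802 hairpin, 188 bp downstream of its start on chromosome 16 from 93369900 to 93370406, had the largest difference among those 37. It had 16.5, 6.7 and 16.9 RPKM in refed and 28.1, 31.4 and 21.7 RPKM in fasted libraries. Each fasted library exceeded each refed one, with a log2 change of -1.12 ± 0.33 (SE) that limma did not call (adjusted p = 0.119), nor DESeq2 (0.0925), while edgeR did (0.0372). The authors' deposited table of edgeR results lists it at an FDR of 0.0134. Upstream, the Mir802 peak at 1512 bp had 11, 10.8 and 10.3 RPKM in refed and 17.2, 17.1 and 15 RPKM in fasted libraries (-0.61, limma adjusted p = 0.31), and that at 1121 bp overlapped between groups (-0.22, limma adjusted p = 0.888).

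Mir101b, whose mature strand represses the histone methyltransferase gene EZH2 in human cells, had 4 peaks on chromosome 19, of which 3 lie in introns of Rcl1. The peak nearest the hairpin, 854 bp upstream, had 15.1, 16.6 and 15.8 RPKM in refed and 32.8, 37 and 20.4 RPKM in fasted libraries. The groups did not overlap, and the log2 change was -0.88 ± 0.23 (SE; limma adjusted p = 0.0799, DESeq2 0.0626, edgeR 0.0223). In intron 6 of Rcl1, peaks at 5639 and 6889 bp had log2 changes of -0.58 and -0.35 (limma adjusted p of 0.149 and 0.45), and in intron 5 the peak at 8631 bp had 0.04 (0.999). The difference was thus largest at the peak nearest the hairpin, although it was not tested between peaks. The nearest peaks of Mir101a and Mir101c had log2 changes of -0.25 and -0.72 with limma adjusted p of 0.75 and 0.549, and the Mir101c values rest on 0 to 3 reads a library.

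The other 4 liver microRNA peaks called by edgeR alone lay farther out and were picked out after their values were seen. Near Mir21a, a microRNA raised in injured liver, the peak 3571 bp downstream had 33.3, 34.6 and 31.6 RPKM in refed and 18.7, 19.5 and 24.3 RPKM in fasted libraries (log2 change 0.68, limma adjusted p = 0.0642, edgeR 0.0265). The Mir193a peak 7054 bp downstream had 29.5, 44.7 and 35.1 RPKM in refed and 21.7, 23.1 and 21.3 RPKM in fasted libraries (0.71, limma adjusted p = 0.0649, edgeR 0.0295). Lower values were found 7821 bp upstream of Mir378c in a Samd4 intron, with 7.95, 5.13 and 7.81 RPKM in refed and 15.1, 18.7 and 19.5 RPKM in fasted libraries (-1.37, limma adjusted p = 0.0652, edgeR 0.0284). The Mirlet7b peak 9890 bp downstream had 14.2, 26.2 and 18.1 RPKM in refed and 30.2, 40.9 and 33.3 RPKM in fasted libraries (-0.87, limma adjusted p = 0.0727, edgeR 0.0476). At none of these 4 did the groups overlap. That adds no support, because the 4 were chosen as edgeR calls on the same libraries.

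**Figure D5:**
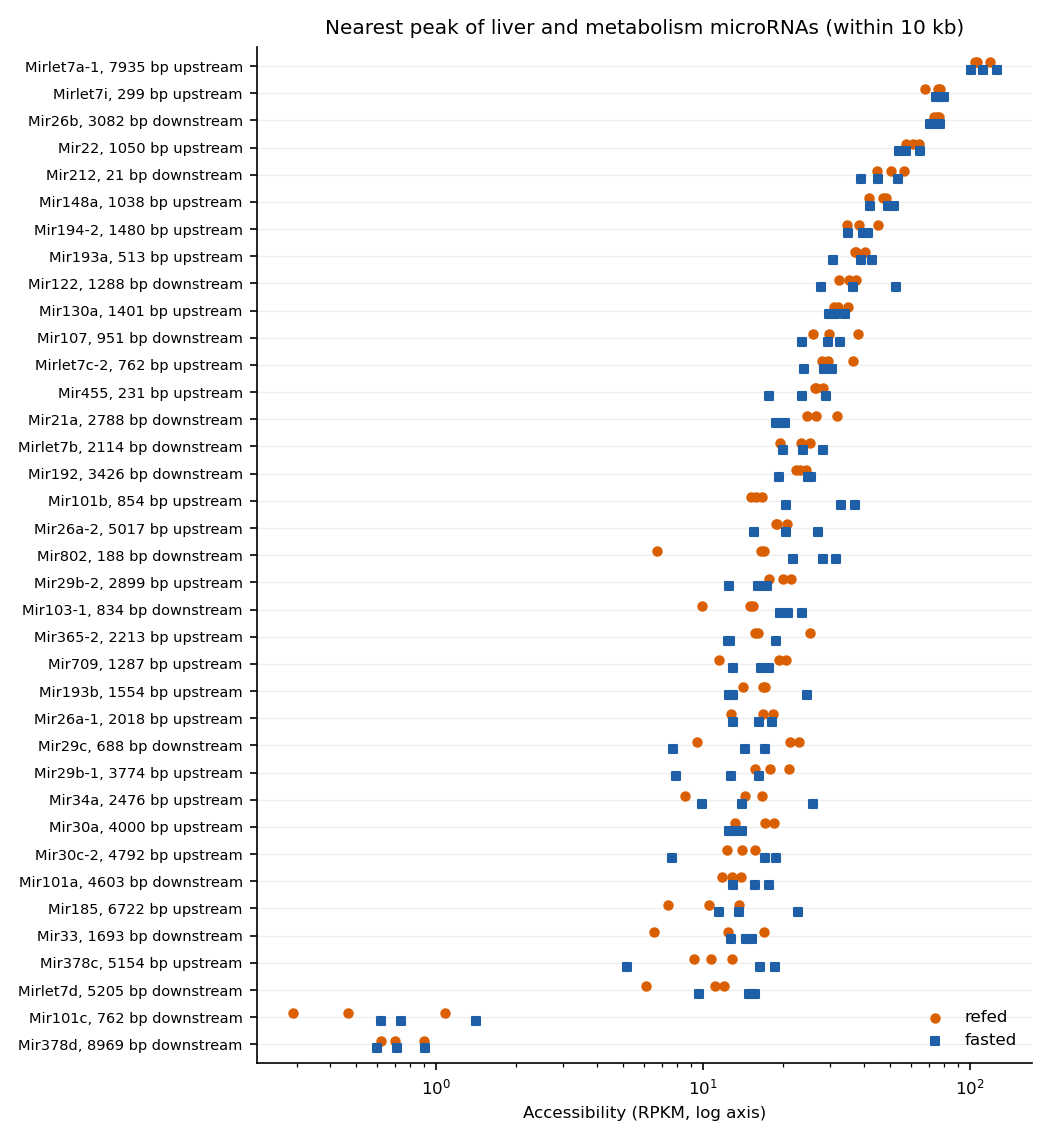
Accessibility (RPKM, log axis) of the nearest peak within 10 kb for 37 liver and metabolism microRNAs in each refed (orange circles) and fasted (blue squares) library, ordered by mean level, with the distance to the start beside the name. Groups overlap at most rows; at Mir802, Mir101b and Mir103-1 the refed values lie below the fasted values, and at Mir21a and Mir29b-2 above them.

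None of the best known liver microRNAs had a limma call at its nearest peak, and the sizes and errors of the differences varied between them. The nearest peak of Mir122, 1288 bp downstream, had 37.4, 32.4 and 35.2 RPKM in refed and 27.7, 36.6 and 52.9 RPKM in fasted libraries, with the fasted values spread over a wider range that covers the refed ones (log2 change -0.11, limma adjusted p = 0.882). The peak next to Mir33, in exon 17 of Srebf2, had 6.57, 16.9 and 12.4 RPKM in refed and 14.5, 15.2 and 12.7 RPKM in fasted libraries (-0.34 ± 0.36, SE; limma adjusted p = 0.749). Mir192 and Mir194-2, a pair of hairpins enriched in hepatocytes and close together on chromosome 19, had 23.2 ± 1.12 and 39.3 ± 5.47 RPKM in refed liver, against 23.2 ± 3.33 and 38.7 ± 3.35 RPKM in fasted liver (SD, n = 3 each). Mir148a, which targets the LDL receptor transcript, had 45.8 ± 3.54 RPKM in refed and 47.7 ± 4.89 RPKM in fasted liver (log2 change -0.06 ± 0.11, SE). Mir34a, a target of p53 in mouse and human cells, had 13.2 ± 4.14 RPKM in refed and 16.6 ± 8.32 RPKM in fasted liver (-0.27 ± 0.37, SE). The precision differs between them: a standard error of 0.11 at Mir148a bounds a change more tightly than one of 0.37 at Mir34a.

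Mir103-1 and Mir107, which share the seed GCAGCAU and have been linked to insulin sensitivity in mice, had peaks of unlike values. The Mir103-1 peak 834 bp downstream had 15, 9.94 and 15.4 RPKM in refed and 23.4, 19.5 and 20.8 RPKM in fasted libraries, groups that did not overlap (log2 change -0.69 ± 0.25, SE; limma adjusted p = 0.211). The Mir107 peak 951 bp downstream had 25.8, 38.2 and 29.6 RPKM in refed and 29.5, 32.5 and 23.5 RPKM in fasted libraries, which overlapped (0.12 ± 0.18, SE; limma adjusted p = 0.848). Neither was called, and the difference between them was not tested. Mir29b-1, Mir29b-2 and Mir29c share the seed AGCACCA and target collagen transcripts, and their nearest peaks had log2 changes of 0.61, 0.37 and 0.43 with limma adjusted p of 0.383, 0.516 and 0.682. The Mir21a peak nearest its start, 2788 bp downstream, had 26.6, 24.5 and 31.7 RPKM in refed and 19.7, 18.7 and 20.3 RPKM in fasted libraries (0.49, limma adjusted p = 0.206).

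The Mirlet7 genes span a wide range of levels, and limma called no change at their nearest peaks. Mir1961, which shares their seed, had the called peak described above. Mirlet7a-1, at 7935 bp upstream in a CpG island, had the highest peak of all microRNA-assigned peaks, with 105.7, 119.4 and 103.8 RPKM in refed and 100.5, 125.8 and 111.6 RPKM in fasted libraries (log2 change -0.04 ± 0.08, SE; limma adjusted p = 0.937). The peak 299 bp upstream of Mirlet7i, labelled as its promoter, had 73.6 ± 5.15 RPKM in refed and 77.3 ± 2.49 RPKM in fasted liver (SD, n = 3 each). That of Mirlet7c-2, with the same label, had 31.3 ± 4.55 RPKM in refed and 27.5 ± 3.37 RPKM in fasted liver. Mirlet7b and Mirlet7d had 22.6 ± 2.87 and 9.74 ± 3.16 RPKM in refed liver, against 23.9 ± 4.17 and 13.4 ± 3.25 RPKM in fasted liver. The limma adjusted p of these 4 ranged from 0.61 to 0.956.

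The strongest peaks had nearly the same level in both groups. After Mirlet7a-1 came the Mir1938 peak, 178 bp upstream of the hairpin start and labelled as its promoter. RefSeq places this hairpin inside Ifrd1. The peak had 105.7 ± 9.06 RPKM in refed and 103.9 ± 7.37 RPKM in fasted liver (SD, n = 3 each). The Mir7655 peak, in a CpG island of intron 1 of Mllt10, had 100.5 ± 8.22 RPKM in refed and 100.2 ± 3.88 RPKM in fasted liver. The promoter peak of Mir22hg, the host gene of Mir22, had 94.5 ± 6.75 RPKM in refed and 91.8 ± 5.52 RPKM in fasted liver. None of these groups differed beyond the spread of its libraries. Mir30d and Mir30a, which belong to one family, had 86.6 ± 4.69 and 85.7 ± 6.98 RPKM in refed liver, against 88 ± 3.23 and 85 ± 2.12 RPKM in fasted liver. Mir3960 and Mir17, the first hairpin of the Mir17 cluster linked to cell growth, had 80.5 ± 9.08 and 81.1 ± 3.73 RPKM in refed liver, against 83.4 ± 7.81 and 78.9 ± 4.55 RPKM in fasted liver. The log2 changes of these 8 peaks lay between -0.05 and 0.04, each with a standard error of 0.07 to 0.09. The peaks of Mir30d and Mir30a lie 21858 and 15774 bp upstream of the hairpins, and that of Mir17 2231 bp upstream in a CpG island.

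Lists of microRNAs typical of other cell types had 0 limma calls except for 1 higher peak, the Mir297-1 peak described above, among the 38 peaks of many-copy clusters. These counts stand against 1.23% of all peaks called by limma, 14.5% at an unadjusted p under 0.05 and 4.01% called by edgeR. Lists of 8 to 38 peaks are too short to tell 0 or 1 limma calls from the background share. Endothelial microRNAs (5 symbols, 15 peaks) had a median log2 change of -0.09 and 2 peaks at an unadjusted p under 0.05, and blood cell microRNAs (10 symbols, 26 peaks) had 0.13 and 3. Mesenchymal and muscle microRNAs (8 symbols, 26 peaks) had -0.09 and 4, brain and islet microRNAs (10 symbols, 34 peaks) had 0.12 and 4, and epithelial and bile duct microRNAs (4 symbols, 8 peaks) had 0.00 and 3. The many-copy list had 7 peaks at an unadjusted p under 0.05, or 18.4%, and the shares of the other 5 lists ranged from 11.5% to 37.5%, the highest being 3 of the 8 epithelial peaks. On recovered reads edgeR called 1 higher and 1 lower peak in the epithelial list, 3 higher in the many-copy list and 0 in the other 4. The epithelial pair were the Mir205 peak at 214556 bp upstream and a Mir200c peak, and the many-copy ones the Mir297-1 peak and 2 peaks of Mir466f-4 with log2 changes of 1.61 and 1.30; all but the Mir297-1 peak were picked out after their values were seen. The Mir200c peak lay 1444 bp upstream of Mir200c at the 3′ end of Ptpn6, with 16.3, 14.9 and 15.8 RPKM in refed and 29.3, 22.5 and 31.9 RPKM in fasted libraries (log2 change -0.82, limma adjusted p = 0.0669, edgeR 0.0259). The peak labelled as the promoter of Mir203, an epithelial microRNA, had 42.4, 45.5 and 44.2 RPKM in refed and 35.3, 36.7 and 35.3 RPKM in fasted libraries. These groups did not overlap (0.30, limma adjusted p = 0.219).

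A few symbols held many of the peaks. The median was 2 peaks a symbol, 220 symbols had 1, and 48 symbols with at least 10 peaks held 674 of the 2268. Mir582 had 29 peaks and Mir1904 had 24, nearly all of them in introns of Pde4d, a long phosphodiesterase gene on chromosome 13. Levels at Mir582 ranged from 0.527 to 38.3 RPKM with a median of 16.3 RPKM, and those at Mir1904 from 0.85 to 35.1 RPKM with a median of 16.5 RPKM. Neither had a limma call, and their median log2 changes were -0.03 and 0.10. The 22 peaks of Mir6336 all lay in introns of Lrp1b, a lipoprotein receptor gene, at 159769 to 1595643 bp, with a median level of 5.66 RPKM and a median log2 change of 0.48. The 22 intergenic peaks of Mir6350 had a median level of 2.37 RPKM and a median log2 change of 0.28.

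Mir101c also had 29 peaks, of which 27 overlap satellite repeats, on chromosome 9 between 2999994 and 3081790. The median level was 0.989 RPKM, and 14 of the 29 had no read in any of the 6 libraries. Over all microRNA-assigned peaks 98, or 4.32%, held no read in any library, against 5.04% of all peaks, and 9.79% held none in at least 1 library, against 10.5%. A peak without reads carries the value the authors set for it and no measured level. Log2 changes at such peaks are set by library size alone.

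The authors' deposited edgeR table lists 115 of these peaks, 81 higher and 34 lower in refed liver, 5.07% against 4.47% of all peaks. The limma fit to the same libraries gave the same sign at all 115 and called 25 of them, and its 1 other call was the Mir677 peak. The authors' deposited table gives FDR values of 1.33e-21 at Mir6392, 1.06e-17 at the 15093 bp peak of Mir1983 and 1.59e-11 at the 6653 bp peak of Mir5098.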

How the data were processed

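ATAC-seq libraries of 3 refed and 3 fasted mouse livers were grouped by their labelled treatment. The submitters' processing notes name HOMER, MACS2, Bowtie2, cutadapt, FastQC, SAMtools and DESeq2, and the mm9 build. Versions, settings and any shift of reads for the transposase offset are not stated there. Per the file headers, duplicates were removed and reads were quantified over 1 merged peak set. The deposited RPKM values are scaled to reads in peaks, which removes differences in the share of reads in peaks. The deposited log2 values are the log2 of these RPKM, and an empty peak carries the value of 0.9 reads. Read counts, recovered from RPKM steps at a tolerance of 0.01, were whole or empty for 100% of values and equalled the counts of the authors' edgeR table at its 3314 peaks. That deposited table also gives the authors' log2 fold change, p-value and FDR. The authors' ratio per peak and pooled RPKM, also deposited, were not used.

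The main test was limma 3.58.1 (R 4.3.3, eBayes with a trend of the variance on mean level) on log2 RPKM of all 74076 peaks, refed minus fasted, without filter, pseudocount or covariate, adjusted by Benjamini-Hochberg over all peaks at 0.05. edgeR 4.0.16 (quasi-likelihood, TMM, filterByExpr) and DESeq2 1.42.0 were run on the recovered reads; scripts were tested on simulated data. Means and SDs are over 3 libraries. Distances follow the file's HOMER annotation, 1-based mm9 coordinates, with names, neighbours and mature sequences from RefSeq GRCm38.p6, where 612 of 613 symbols were found; no coordinates were taken from it.

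Peaks named are all those called by limma, the 8 strongest with 1 per symbol, the peak nearest the start within 10 kb for listed microRNAs, and the 5 symbols with the most peaks (a tie at 22 broken by name). Other peaks, namely further peaks of these symbols and peaks called by edgeR alone, were picked out after their values were seen. The set and the lists were chosen with earlier results of these data known. Entries include 5 host gene symbols ending in hg, with 33 peaks. Some sequences are not reported here.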

Additional observations from a re-analysis of the deposited data

How the results depend on the processing

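The main counts were 20 higher and 6 lower peaks. They were 57 and 24 with edgeR, 0 and 0 in limma without an intensity trend (0 and 0 over all peaks), 1 and 1 after quantile normalization (71 and 23 over all peaks), and 270 and 87 with array weights (11.9% and 3.84%, against 8.81% and 4.27% of all peaks). With median centring 18 peaks were lower, against 27 higher, a share of lower calls above that of the main fit. With 1 library left out, higher calls ranged from 2 to 31, or 0.0882% to 1.37%, against 0.104% to 1.31% of all peaks. Lower calls ranged from 0 to 5, at most 0.22%, against 0.0648% to 0.285% of all peaks. DESeq2, log2(RPKM + 1), a filter at the first quartile of mean level and leaving out host gene entries kept both counts within 1.5 times. No log2 change of a called peak turned in sign. Of the 26 calls edgeR kept 24, DESeq2 15 of the 25 it gave an adjusted p, median centring 25, log2(RPKM + 1) 22, array weights 26, quantile normalization 1 (Mir6392) and limma without a trend 0. The calls lost without fasted replicates 1, 3 and 4 numbered 7, 8 and 18, and without refed replicates 5, 7 and 8 they numbered 14, 17 and 23. The cause was not tested. With distance limits of 2, 20 and 200 kb the nearest class held 213 peaks at a median of 21 RPKM, the second class had a median of 15.7 RPKM, and the farthest held 329 peaks at 10.2 RPKM, since the limits moved. The median of all peaks stayed within 0.041 of 0 on the log2 scale in every fit. No paired analysis was possible because the refed and fasted groups share no replicate number. The median peak held 17 to 27 reads in a library, and how far this depth limited the calls was not tested. An unadjusted p under 0.05 was reached by 380 peaks, 16.8% against 14.5% of all peaks.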

Other observations

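Peaks called by edgeR on the recovered reads and not by limma included some at further microRNA starts. Within 1 kb edgeR called 2 higher peaks, at Mir6392 and Mir1191b, and 3 lower peaks, at Mir802, Mir101b and Mir7034. The 5 are 3.73% of the microRNA-assigned peaks it tested within 1 kb, against 1.03% of all peaks in that class and 4.01% of all peaks at any distance, and the difference between these shares was not tested. The peak labelled as the promoter of Mir7034 lies 10 bp upstream of its start on chromosome 5. It had 4.68, 9.06 and 13.6 RPKM in refed and 19.7, 32.8 and 25.1 RPKM in fasted libraries. The groups did not overlap, and the log2 change was -1.60 ± 0.37 (SE; limma adjusted p = 0.0535, edgeR adjusted p = 0.0092). The Mir6922 peak, 1765 bp upstream of its start in an exon of Srebf1, the gene of a regulator of fatty acid synthesis, had 8.69, 18.2 and 11.6 RPKM in refed and 32.7, 27.6 and 19.4 RPKM in fasted libraries. Refed values again lay below fasted values, and the log2 change was -1.08 ± 0.29 (SE; limma adjusted p = 0.0938, edgeR adjusted p = 0.0245). Both peaks were picked out after their values were seen.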
